A study of Sus scrofa with 12 samples.

Results

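The conserved oligomeric Golgi (COG) complex is described here through its 8 subunit genes, COG1 to COG8, among the 28224 genes annotated on the pig chromosomes. The subunits were chosen by name. COG7 leads the account because its summed transcript level was already known to differ between the 2 groups of pigs, so its H and L values are a description and carry no test. All 8 genes were above 0 in all 12 libraries, and all passed the filter of a mean of at least 0.5 FPKM (the fragments of a transcript relative to its length and to the mapped fragments of the library) in at least 1 group. RNA came from the longissimus dorsi, a muscle of the back, of 12 grown castrated Iberian males that were fattened outdoors on acorns and grass, and each pig gave 1 paired-end library. The H group (6 pigs, H1 to H6) had breeding values for intramuscular fat of 2.78 to 3.48. The L group (6 pigs, L1 to L6) had breeding values of -1.46 to -1.31. Fat percentages are left out, since the labels and the study's text differ for the L group. The labels name no allele or agent that sets the groups apart, and the groups are the extremes of breeding value in 1 population.

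COG is a vesicle tether. It holds vesicles that return Golgi enzymes to their cisterna until SNARE proteins fuse them, and so keeps glycosyltransferases and their substrates in the same place. COG1, COG2, COG3 and COG4 form lobe A and COG5, COG6, COG7 and COG8 form lobe B, with COG1 and COG8 joining the lobes. Inherited loss of COG7 and of several other subunits causes congenital disorders of glycosylation in people.

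The libraries held 9.88 to 17.62 gigabases of transcript coverage. The summed FPKM of the muscle markers ran from 26036.8 to 36238.7 in H and from 26187 to 31515.3 in L, with 6 of 7 markers above 0 and MB not among the annotated symbols. Adipocyte markers summed to 131.3 to 231.2 FPKM in H and 76.61 to 138.5 in L, with 8 of 8 above 0. Erythroid markers summed to 85.45 to 298.8 in H and 73.03 to 161.5 in L, with the red cell anion exchanger gene SLC4A1 listed at 0 in all libraries. The ranges of endothelial (34.34 to 115.7 over both groups, 5 of 5 above 0), macrophage (6.13 to 17.89, 4 of 5, CD68 at 0), fibroblast (132.3 to 683, 5 of 5) and Schwann cell markers (9.014 to 24.96, 4 of 5) overlapped between the groups. In whole muscle, fewer cells of a type and less RNA per cell cannot be told apart. The part of any of these cell types in the COG values was not tested.

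COG7 lies on chromosome 3, 22740424 to 22826589 of Sscrofa11.1, on the plus strand, and its RefSeq model has 17 exons, 16 introns and 770 codons. The place in the gene that the COG7 results turn on is intron 12, 2127 bases at chr3:22793899-22796025. The bases at both of its ends are shown because the complete COG7 transcript joins exon 12 to exon 13 there. The capitals mark the first and the last pair of bases of the intron, which are the standard splice site letters. They were read from the RefSeq genome, plus strand, 5′ to 3′, at chr3:22793869-22793928 and chr3:22795996-22796055.
Exon 12 into intron 12: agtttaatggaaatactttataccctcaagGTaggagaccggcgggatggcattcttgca
Intron 12 into exon 13: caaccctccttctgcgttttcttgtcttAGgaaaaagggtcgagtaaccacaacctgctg

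The start of the intron, chr3:22793899-22794108, is shown because part of the COG7 transcripts of the H pigs run into it. The first capitals mark the first stop codon in the reading frame of exon 12, TAG at 22794022 to 22794024, and the second capitals mark AATAAA, the standard polyadenylation hexamer, at 22794088 to 22794093.
Start of intron 12: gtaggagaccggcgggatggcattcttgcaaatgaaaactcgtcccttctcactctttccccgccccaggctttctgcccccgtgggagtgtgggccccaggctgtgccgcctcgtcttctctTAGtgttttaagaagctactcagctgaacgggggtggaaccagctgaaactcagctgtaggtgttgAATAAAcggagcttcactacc

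The middle of the intron, chr3:22795172-22795299, is shown because the other part of the transcripts begins there. The first capitals are an unbroken run of 33 T at 22795202 to 22795234, and the second capitals are the 27 bases in which 7 transcripts start, 22795253 to 22795279.
Middle of intron 12: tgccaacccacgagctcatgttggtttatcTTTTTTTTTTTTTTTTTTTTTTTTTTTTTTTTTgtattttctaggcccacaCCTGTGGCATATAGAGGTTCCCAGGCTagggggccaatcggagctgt

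Summed over its transcripts, COG7 was higher in every H pig than in every L pig. The sum was 4.42, 5.14, 4.48, 4.70, 4.68 and 4.47 FPKM in H1 to H6 and 3.20, 3.12, 2.85, 3.32, 3.58 and 2.88 FPKM in L1 to L6. The group means were 4.65 ± 0.267 (SD, n = 6) and 3.16 ± 0.274 (SD, n = 6), a difference of 0.49 ± 0.09 (standard error) on the log2(FPKM + 0.5) scale, which understates changes of low genes. Of the 12415 genes with the minimum level, 38 (0.306%) had every H pig above every L pig and 31 (0.25%) had every H pig below every L pig. COG7 was taken up because it was one of the 38, so nothing is read from its place among them.

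The sum had a different make-up in the 2 groups. Every library held the complete COG7 transcript with all 16 introns, and it was lower on average in H. Its level was 1.85 to 2.95 FPKM in H (median 2.45) and 2.83 to 3.32 FPKM in L (median 3.00). H2, at 2.95, was above L3, L5 and L6, and the other H pigs lay under every L pig. The chain of introns of the second RefSeq model of COG7 was found in 0 libraries.

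Beyond the complete transcript, H pigs had 2 kinds of part transcript with an end in intron 12, which left a stretch of the intron between them. The 5′ part holds exon 1 to exon 12 and ends inside the intron, and it was assembled in 6 of 6 H and 0 of 6 L libraries. Its level was 1.31, 0.588, 0.755, 0.721, 0.602 and 0.785 FPKM in H1 to H6, where the value of H1 is the sum of 2 such parts (0.524 and 0.787). The 3′ part starts inside the intron and runs through exon 13 towards the end of the gene, and it was assembled in all 6 H libraries and in L5. Its level was 1.255, 1.602, 1.143, 1.559, 1.698 and 1.203 FPKM in H1 to H6 and 0.749 FPKM in L5. The 3′ part was thus above any single 5′ part in every H library, and in H1 it was below the 2 5′ parts together. The coverage behind these values was 4.43 to 8.55 reads per base for single 5′ parts and 6.602 to 18.49 for the 3′ parts, against 17.7 to 33.7 for the complete transcript.

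**Figure D1:**
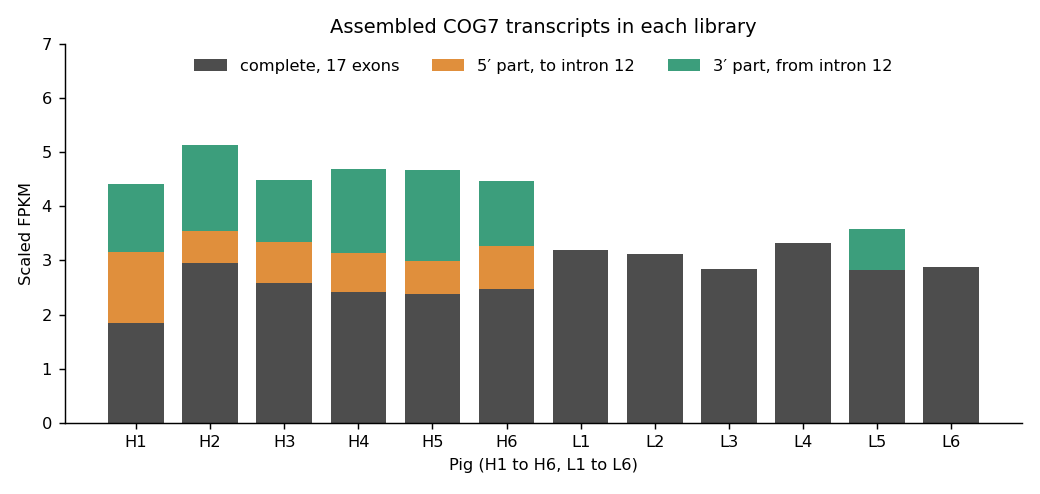
Scaled FPKM of the assembled COG7 transcripts in each library, stacked, for pigs H1 to H6 and L1 to L6; the grey bar is the complete transcript, orange the 5′ part and green the 3′ part. All 6 H bars carry both parts and end between 4.42 and 5.14, whereas 5 of the L bars are the complete transcript alone and L5 adds a 3′ part of 0.749.

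The 3′ parts began close together. Their 7 starts fell between 22795253 and 22795279, which is 747 to 773 bases before exon 13 and 19 to 45 bases after the run of T shown above. The start in L5 was at 22795276, the same base as in H1. All 7 lay in a stretch of 292 bases, 22795191 to 22795482, that RefSeq masks as a repeat. Of the 92904 introns of coding transcripts at least as long as intron 12, 0.957% hold a run of T of 33 or more in their first 2127 bases. No transcript in any library had exonic bases in the run of T. Pieces ended shortly before the run in H1 (the second 5′ part described below, 22795187), H2 (22795195), H3 (22795187), H4 (22795185) and H6 (22795192). In these libraries the assembled transcripts thus broke off before the run and resumed after it. In H5 the piece inside the intron ended farther off, at 22794628. Whether the 7 starts mark the beginning of an RNA was not tested.

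The 5′ parts ended at more scattered places. In each H library 1 of them ran unspliced from exon 12 into the intron, and the ends lay 401, 300, 67, 341, 342 and 420 bases past exon 12 in H1 to H6. In 5 of these 6 the stop codon and the AATAAA shown above lay within the transcript, with the end 105 to 225 bases beyond the hexamer. The end in H3, 67 bases past exon 12, came before both. Both strings AATAAA and ATTAAA were searched on the sense strand, and 1 match was found in the whole of intron 12. Either of them is present in the first 420 bases of 30.6% of 169925 introns of that length or longer in coding transcripts, and AATAAA in 18.7%.

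Read in frame, the coding part up to exon 12 has 554 codons, 71.9% of the whole, and 41 more codons follow in the intron before the TAG. This reading holds for a part with all 12 exons. The 5′ part of H6 skipped exon 7, whose 199 bases are not a whole number of codons, and its frame was not followed. H1 held a second 5′ part, at 0.787 FPKM, that spliced out an intron of 858 bases after exon 12, from 22793899 to 22794756 with GT and AG at its ends, and stopped at 22795187.

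Other pieces lay wholly inside intron 12. They were assembled in 5 H libraries and in L1, L4 and L5. Counting all pieces, 59.1 to 90.0% of the bases of the intron lay in a transcript in H and 0 to 52.5% in L, without overlap between the groups. Averaged over the intron, the level was 0.701 to 1.10 FPKM in H and 0 to 0.436 in L. Both measures include the 5′ and 3′ parts, whose FPKM also entered the COG7 sum by which the gene was chosen. The separation is therefore a description, and how many introns of other genes separate in this way was not counted. The other 15 introns had 0 bases in any transcript that was on the COG7 strand or unstranded, in all 12 libraries, so the intronic signal of COG7 was in intron 12 in every library that had it.

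**Figure D2:**
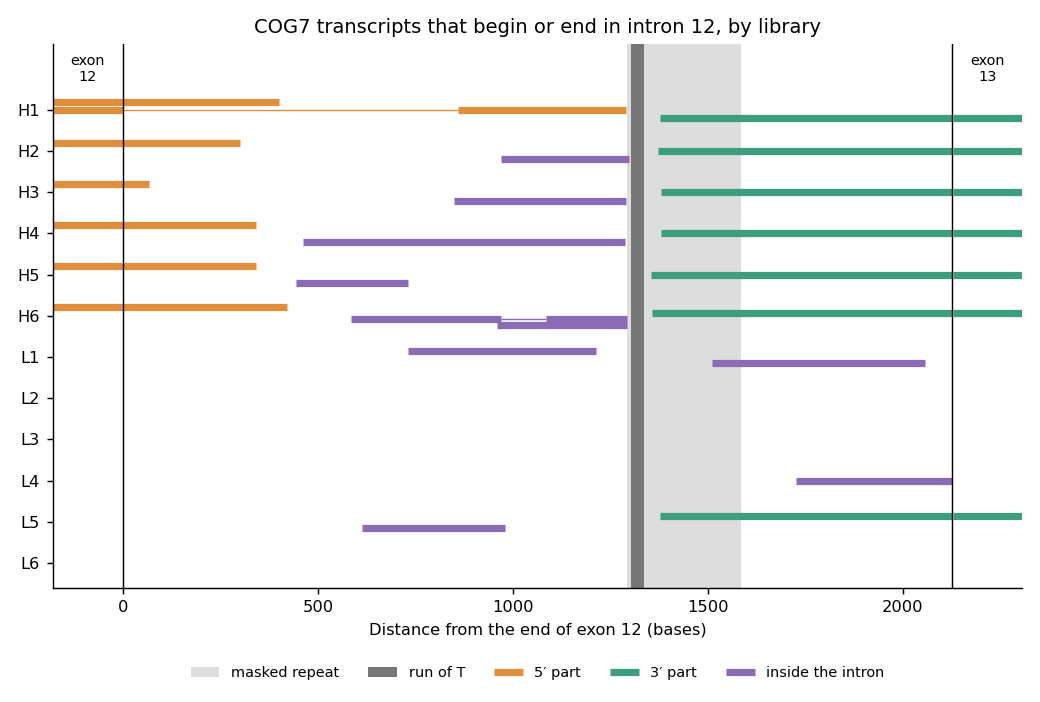
Map of intron 12 of COG7 with 1 row per library; the x axis is the distance in bases from the end of exon 12, bars are transcript exons, thin lines new introns, the grey band the masked repeat and the dark band the run of T. The 7 green 3′ parts start between 747 and 773 bases before exon 13, just right of the dark band, and the orange 5′ parts appear in H1 to H6.

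Followed along the gene, the group means were closer before intron 12 than after it. The 5′ and 3′ parts were defined by an end in intron 12, so only the complete transcript carries it. The values at intron 12 are therefore those of the complete transcript again. The values at the other introns include the parts, which entered the sum by which COG7 was chosen, so the profile is a description. Transcripts that carry introns 1 to 11 added up to 3.21 ± 0.195 FPKM (SD, n = 6) in H and 3.03 ± 0.208 in L. Those that carry intron 12 added up to 2.44 ± 0.356 in H and 3.03 ± 0.208 in L, and those that carry introns 13 to 16 to 3.79 ± 0.382 in H and 3.16 ± 0.274 in L. The ranges overlapped in all 3 stretches. The summed FPKM counts the 5′ and the 3′ part once each, although together they span the gene once. Averaged over the 16 introns, COG7 came to 3.28 ± 0.275 FPKM in H and 3.00 ± 0.178 in L, a log2 difference of 0.11 ± 0.07 (standard error). As coverage over the annotated exons it came to 3.12 ± 0.260 in H and 2.88 ± 0.200 in L, a log2 difference of 0.10 ± 0.07. From transcripts with an annotated intron chain alone, the difference turned to -0.23 ± 0.13. The groups overlapped by each of these measures.

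**Figure D3:**
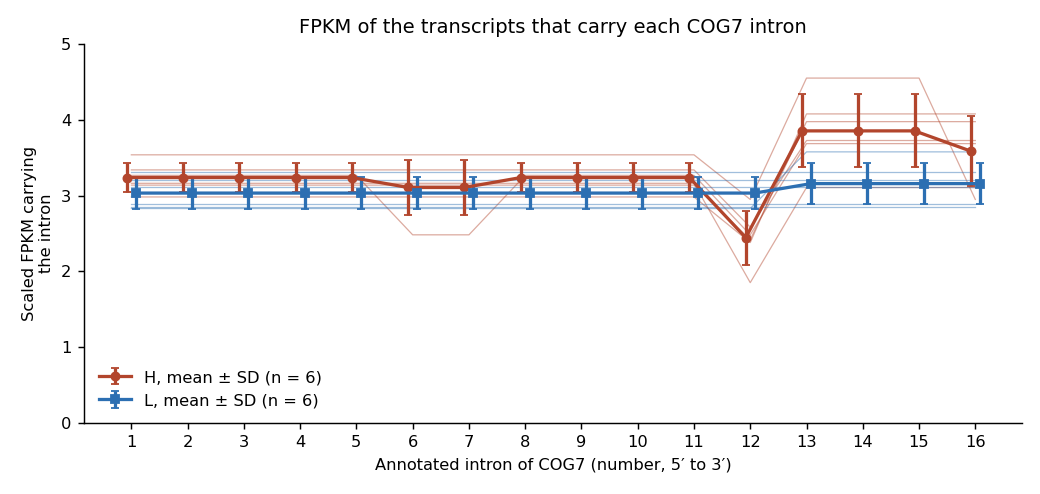
Summed scaled FPKM of the transcripts that carry each of the 16 COG7 introns, numbered 5′ to 3′; thin lines are single pigs, and points with bars are the mean ± SD of 6 H or 6 L pigs. The H mean dips to 2.44 at intron 12, which only the complete transcript carries, under the L mean of 3.03. At the later introns the H mean lies above the L mean.

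Few genes were split between the groups this way. Among 3718 genes whose annotated intron chain was assembled in all 12 libraries, 3 (0.0807%) had a part transcript with an end inside an intron in all 6 H and in at most 1 L library. They were COG7, CYP27A1, a sterol hydroxylase of mitochondria, and PPP2R5A, a regulatory subunit of protein phosphatase 2A. The reverse held for 2 (0.0538%), the kinase gene CDK19 and ING3, a reader of histone marks. This count was made after the COG7 parts had been seen. H libraries also held more transcripts wholly inside introns of annotated genes, 5494 to 9837 (median 6921.0) against 3200 to 5991 (median 5225.5) in L (exact permutation test, two-sided, p = 0.00649, n = 6 and 6), a measure likewise chosen after the data were seen. The test is of counts, and all assembled transcripts numbered 35094 to 44609 in H and 30535 to 36061 in L. The share inside introns was 15.66 to 22.05% in H and 10.48 to 16.61% in L and was not tested. H5, with 5494, had both parts of COG7, and L5, with 5756, had the 3′ part. L4, with 5991, had neither part, and L3, with the lowest count, 3200, had neither. The part of this library difference in the COG7 result was not tested.

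Of the nearest genes to COG7, only GGA2 was above 0, and its summed FPKM overlapped between the groups. Part transcripts of GGA2 were not examined. GGA2, a clathrin adaptor of the trans-Golgi, ends at 22734266 before COG7 on the same strand, and was at 5.88 to 7.19 FPKM in H and 5.92 to 11.7 in L. SCNN1B, an epithelial sodium channel subunit that follows on the other strand, was listed at 0 in all libraries. So was the pseudogene LOC100627159, which lies inside an intron of COG7.

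The other 7 subunits showed no difference between the groups that passed the test. Each was a row of the limma fit over 12415 genes with Benjamini-Hochberg adjustment, in which 1 gene (0.00805%), LOC102162288, passed an adjusted p of 0.1. Of the 7 subunits 0 passed, 0 had an unadjusted p under 0.05 (906 of all genes, 7.3%, did), and in 0 of them did H and L pigs separate without overlap. Their log2 differences had both signs, 6 negative and 1 positive, where 6136 of all genes were negative and 6279 positive.

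In lobe A, COG1 was at 10.6 to 15.2 FPKM in H (median 11.4) and 11.6 to 15.2 in L (median 12.7). The ranges overlapped almost wholly, and the log2 difference was -0.11 ± 0.11 (standard error; limma adjusted p = 0.837). COG2, at 2.74 to 6.95 FPKM in H (median 3.22) and 3.40 to 7.95 in L (median 3.60), differed by -0.17 ± 0.24 (limma adjusted p = 0.889). In both groups 1 pig stood well above the others, H6 and L3. COG3 was at 4.00 to 4.62 FPKM in H (median 4.28) and 3.95 to 9.48 in L (median 4.36), where L3 and L6 were high, and differed by -0.26 ± 0.19 (limma adjusted p = 0.788). COG4, the subunit that binds the SNARE syntaxin 5 and its partner SCFD1, was at 6.83 to 9.13 FPKM in H (median 7.95) and 4.93 to 13.4 in L (median 7.95). L pigs held both the highest value, L2, and the lowest, L3, and the difference was 0.01 ± 0.19 (limma adjusted p = 0.996).

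In lobe B, COG5 was at 4.07 to 27.1 FPKM in H (median 15.0) and 5.07 to 27.8 in L (median 24.8) and differed by -0.64 ± 0.55 (limma adjusted p = 0.803). High and low pigs occurred in both groups. COG6 was at 2.19 to 5.02 FPKM in H (median 3.31) and 2.27 to 4.98 in L (median 2.97) and differed by -0.00 ± 0.22 (limma adjusted p = 1). COG8, which joins lobe B to COG1, was at 4.13 to 7.08 FPKM in H (median 4.85) and 5.35 to 14 in L (median 5.43). All H pigs but H5 lay under every L pig, and the difference was -0.34 ± 0.23 (limma adjusted p = 0.768), or -0.13 without L2 (limma adjusted p = 0.817). Exact permutation tests of the 7 genes over all arrangements of 6 pigs against 6, two-sided, gave unadjusted p from 0.167 for COG8 to 0.985 for COG6, where the smallest possible is 0.0022.

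**Figure D4:**
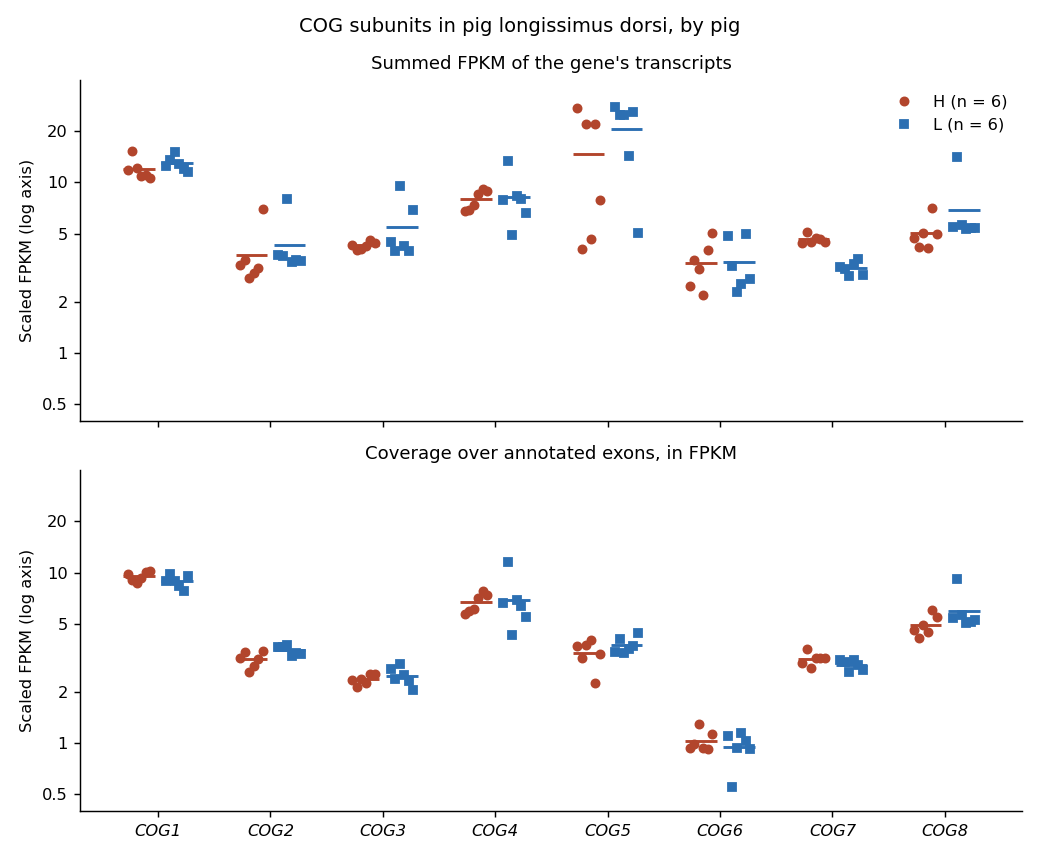
Scaled FPKM of the 8 subunits in each pig on log axes, as the sum over transcripts (top) and as coverage over annotated exons (bottom); circles are H and squares L pigs, and lines are the means of 6. COG7 separates into 2 groups in the top panel, at 4.42 to 5.14 and 2.85 to 3.58, and overlaps in the bottom panel; the COG5 spread of 4.07 to 27.8 narrows to 2.26 to 4.40.

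Most of the high single values of the subunits came with a gene assembled in several transcripts. COG2 was in 2 and 3 pieces with no transcript over all 17 introns in H6 and L3, and as exon coverage those pigs were at 3.47 and 3.77 FPKM, the top of group ranges that started at 2.63 and 3.25. COG3 was in 2 pieces with at most 19 of 22 introns in 1 transcript in L3 and L6, and its exon coverage there was 2.91 and 2.04 against 2.13 to 2.71 in the other pigs. COG8 had 4 transcripts in L2, but L2 was also the highest by exon coverage, at 9.13 against 4.15 to 6.04 in the other pigs. COG4 in L2, at 13.4, came from 1 complete transcript and stayed highest by exon coverage, at 11.5. COG7 was the one subunit whose complete intron chain, as RefSeq gives it, was assembled in all 12 libraries. Complete chains were found in 10 libraries for COG3, 9 for COG4, 8 for COG6, 5 for COG5, 4 for COG1, 3 for COG2 and 1 for COG8. COG4 and COG8 also had all introns of their reference model in 1 transcript in 6 of 6 H and 6 of 6 L libraries. Where such a transcript did not match the RefSeq chain, it held a further, new intron.

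COG5 was high where a single-exon transcript lay at its 3′ end. In 7 libraries (H1, H3, H5, L1, L2, L3 and L5) a transcript of 1021 to 1188 bases was assembled on the COG5 strand at 17.3 to 22.5 FPKM, and the COG5 sum was 22.1 to 27.8. It shared 105 to 260 bases with COG5 exons and 1021 to 1094 bases with exons of HBP1, a transcription factor gene on the opposite strand. In the other 5 libraries the sum was 4.07 to 14.4. No source used here says whether the reads were kept by strand, so the pair cannot be told apart in this stretch, and HBP1 itself was at 10.7 to 25.8 FPKM. As exon coverage COG5 was at 2.26 to 4.40 FPKM, with a log2 difference of -0.15 ± 0.12 (limma adjusted p = 0.703).

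COG6 and COG8 ran beyond their coding ends. The last coding exon of COG6 ends at 14649799 on chromosome 11, while its noncoding RefSeq models go on to 14737836. Some transcripts ran only a short way past that exon, at the farthest to 14651691 in H4, and are not counted here. Transcripts that ended at 14719864 or beyond were present in 6 H and 5 L libraries. These summed to 0.686 to 2.18 FPKM in H (median 0.839) and 0 to 0.694 in L (median 0.384). The ranges just overlapped, and this split of COG6, made after its transcripts were seen, was not tested. COG8 ends at 17652301 on chromosome 6, 5 bases into PDF, a mitochondrial peptide deformylase gene on the same strand. In all 12 libraries a COG8 transcript with a new intron ran past this end, in 11 of them by 1543 to 2409 bases and in L2 by 140 bases. COG1 shares 1157 exonic bases with FAM104A on the opposite strand, which was above 0 in 4 libraries, at most 4.88 FPKM. In every library COG1 transcripts also ran past its 3′ end, at 7745928 on chromosome 12, farther into the span of FAM104A. In L3 a single-exon piece at 7744781 to 7747169, of 5.59 FPKM, lay almost wholly in that span and entered the COG1 sum of 15.2. Without knowledge of the strand, the 2 genes cannot be told apart there.

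By other measures of the same transcripts the 7 subunits again gave 0 calls. Averaged over annotated introns, COG8 differed by -0.32 ± 0.14 (limma adjusted p = 0.625) and had an unadjusted p under 0.05, with 805 of 10123 genes (7.95%) under an unadjusted 0.05. As exon coverage, COG2 differed by -0.15 ± 0.08 (limma adjusted p = 0.56). The sign of COG1 turned from -0.11 to 0.10 as exon coverage, with an adjusted p of 0.724 in limma.

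**Figure D5:**
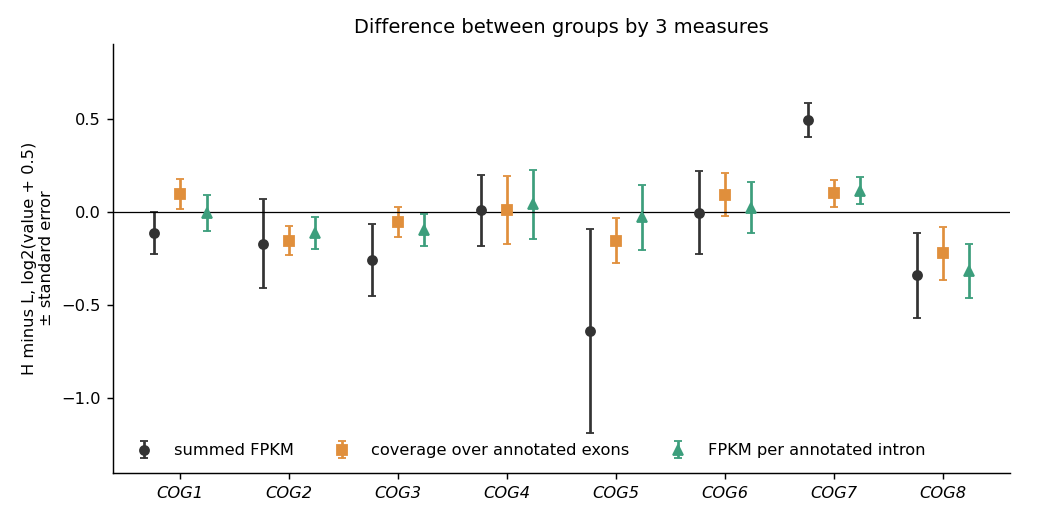
Difference H minus L of each subunit on the log2(value + 0.5) scale, with its standard error, by summed FPKM (circles), coverage over annotated exons (squares) and FPKM per annotated intron (triangles). COG7 falls from 0.49 to 0.10 and 0.11, and the bars of COG5 shrink from ± 0.55 to ± 0.12 and ± 0.18.

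The subunits were not at 1 common level. Both measures below are per length. The summed FPKM counts each piece of a gene and, for COG5, the transcript that lies mostly on HBP1 exons, so its order depends on the assembly as well. By mean log2 of the summed FPKM the order was COG5, COG1, COG4, COG8, COG3, COG7, COG2, COG6. Neighbours in this order, with COG7 left out, were compared within pigs by an exact sign-flip permutation test, two-sided, adjusted over 6 pairs. COG1 was above COG4 by 0.62 ± 0.41 (SD, n = 12) on the log2 scale, in 12 of 12 pigs (exact test, adjusted p = 0.00293). COG4 was above COG8 by 0.45 ± 0.33 in 10 of 12 pigs (exact test, adjusted p = 0.00586). COG3 was above COG2 by 0.27 ± 0.35 in 11 of 12 pigs (exact test, adjusted p = 0.0488), but this passed in 1 of the 12 runs that each left out a pig (without H6), and its direction turned as exon coverage. COG5 and COG1 (exact test, adjusted p = 0.514), COG8 and COG3 (0.276) and COG2 and COG6 (0.304) did not differ beyond their spread.

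As exon coverage the order changed to COG1, COG4, COG8, COG5, COG2, COG7, COG3, COG6, and 5 of 6 pairs passed. COG5 dropped from the first to the fourth place, under COG8 by 0.54 ± 0.33 in 12 of 12 pigs (exact test, adjusted p = 0.000977). COG2, under COG3 by summed FPKM, was above it by 0.38 ± 0.14 in 12 of 12 pigs (exact test, adjusted p = 0.000977). The exons counted for COG3 are those of 2 RefSeq models, of which 1 is coding. Averaged over annotated introns COG3 was again the higher, with a mean of 3.86 FPKM against 3.20 for COG2, so their order depends on the measure. COG6 lay under COG3 by 0.98 ± 0.20 in 12 of 12 (exact test, adjusted p = 0.000977), and its annotated exons include those of the noncoding models. COG5 and COG2 were the pair that did not pass (exact test, adjusted p = 0.258). COG1 and COG4 of lobe A and COG8 of lobe B were thus the upper 3 by exon coverage, with means of 9.19, 6.78 and 5.45 FPKM over the 12 pigs, and COG7 had a mean of 3.00.

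Among 12120 genes above 0 in at least 6 libraries, those whose summed FPKM followed COG7 most closely over the 12 pigs were LOC102162288 (Pearson r = 0.93), the metalloprotease gene ADAM15 (0.93), the ubiquitin ligase gene DTX3 (0.92), LOC106505211 (0.91) and the cyclin gene CCNL2 (0.91). After the group means were subtracted they were CAVIN2, a protein of caveolae (0.91), LOC100515685 (0.91), LOC100521069 (0.90), RBM25, an RNA-binding protein (0.90), and the protein kinase gene PRKD2 (0.89). These points share their libraries and their scaling, and the values are descriptions. The other subunits had r with COG7 from -0.57 (COG3) to 0.14 (COG6) over the 12 pigs and from -0.71 (COG3) to 0.44 (COG6) within groups. Their best rank in likeness to COG7 was 4616 (COG6) over the 12 pigs and 1430 (COG6) within groups.

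The machinery around the complex was followed through 6 lists of Golgi genes, with 137 of 145 members tested. Of these, 0 passed the adjusted threshold in limma in either direction, against 1 of all 12415 genes (0.00805%). Unadjusted, 1 was higher and 3 were lower in H at a p under 0.05, where 488 and 418 of all genes were. As exon coverage 15 of 130 (11.5%) had an unadjusted p under 0.05, 3 higher and 12 lower in H, beside 998 of 10550 genes (9.46%), 495 higher and 503 lower, and 0 of the 130 passed the adjusted threshold. The other tethering complexes held 6 of the 15, all lower in H, and the SNAREs 0 of 17. By summed FPKM the median log2 difference over the lists was -0.04, beside 0.00 over all genes tested.

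The SNAREs and their SM partners, which fuse the vesicles that COG tethers, had 13 of 17 members lower and 4 higher in H, with a median of -0.19, and 0 called. As exon coverage their median was -0.055, beside -0.018 over all genes. NAPA, the adaptor that recruits NSF, was at 31.6 ± 4.43 FPKM in H and 36.5 ± 3.89 in L (SD, n = 6; limma adjusted p = 0.729), and STX16, a syntaxin of the trans-Golgi, at 20.9 ± 1.72 and 21.4 ± 2.58 (limma adjusted p = 0.965). NSF, the ATPase that takes SNARE complexes apart, had 2.37 to 3.23 FPKM in H (median 2.76) and 2.51 to 5.77 in L (median 5.47), a difference of -0.61 ± 0.20 (limma adjusted p = 0.586). SCFD1, the partner of syntaxin 5, had a median of 5.78 in H and 11.09 in L (difference -0.56 ± 0.25; limma adjusted p = 0.679). NSF and SCFD1 are named because their unadjusted p was small, as are ARF3 and MAN2A1 in the lists that follow, and by exon coverage these 4 were not among the 15.

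The golgins and GRASPs, long tethers of the Golgi stack, had 9 of 17 members lower in H, a median of -0.035 and 0 called. CUX1, whose gene also makes the golgin CASP, was at 43.5 ± 8.68 FPKM in H and 42.3 ± 3.85 in L, and GOLGA4, a tether of the trans-Golgi, at 35.5 ± 4.61 and 40.1 ± 10.2. The Rab and Arf GTPases, which place tethers and coats, had 15 of 20 members lower in H, a median of -0.05 and 0 called. ARF1 was at 87.0 ± 10.8 and 92.2 ± 7.53 FPKM and RAB10 at 58.7 ± 10.2 and 62.5 ± 2.73. ARF3 was at 2.44 to 7.04 in H (median 3.82) and 2.06 to 3.49 in L (median 2.39), a difference of 0.56 ± 0.22 (limma adjusted p = 0.652).

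The COPI coat, which forms the vesicles that COG receives, had 4 of 9 members lower, a median of 0.00 and 0 called. Its highest members were COPE, at 39.9 ± 3.72 FPKM in H and 41.5 ± 2.82 in L, and ARCN1, at 20.3 ± 3.12 and 25.0 ± 4.16 (limma adjusted p = 0.685). The other tethering complexes split evenly, 15 of 30 each way, with a median of -0.01 and 0 called. Their leading members, TRAPPC1 (24.9 ± 5.31 and 26.9 ± 5.80 FPKM) and TRAPPC5 (18.9 ± 2.04 and 20.1 ± 5.05), belong to the TRAPP complexes.

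The glycosylation enzymes and transporters, the cargo whose place COG maintains, split 22 to 22 with a median of 0.00 and 0 called. GALNT11, which starts O-linked chains, was at 31.2 ± 4.93 FPKM in H and 31.4 ± 4.16 in L, and ATP2C1, the calcium and manganese pump of the Golgi, at 20.8 ± 3.08 and 31.8 ± 18.1 (limma adjusted p = 0.738). MAN2A1, the mannosidase that trims N-linked chains in the medial Golgi, was at 1.06 to 1.32 FPKM in H (median 1.19) and 1.40 to 2.57 in L (median 1.83). Every H pig lay below every L pig, as in 0.25% of all genes, and the difference of -0.46 ± 0.15 did not pass (limma adjusted p = 0.583).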

How the data were processed

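The authors sequenced total RNA of the longissimus dorsi of each pig as paired-end reads of 76 bp. Per the labels, they used Trim Galore, TopHat2 2.1.0 and Cufflinks 2.2.1 on Sscrofa11.1. The deposited files list, for each library, the assembled transcripts with their exons, FPKM and coverage, as the authors' assembler gave them. A transcript absent from a library counted as 0.

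With Python 3.11.15, a transcript was assigned to the RefSeq gene on its strand with the most shared exonic bases (an unstranded one if at least 50% lay on exons). Annotated gaps under 10 bases were not counted as introns. FPKM were summed per gene and scaled by median ratios over 10466 genes. Genes whose mean reached 0.5 FPKM in either group entered limma 3.58.1 (R 4.3.3), on log2(FPKM + 0.5), two-sided and with a variance trend, and were called at an adjusted p under 0.1. The study's own test needs alignments, which were not used here. Coverage over annotated exons was converted to FPKM by the ratio of the 2 in each library. The fit was tested on simulated data.

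The members, lists and rule for named genes were chosen with earlier results of these data known. The rule takes the 8 subunits, their neighbours, the 2 highest members of each list and any called, and the 5 genes most like COG7 overall and within groups. NSF, SCFD1, ARF3, MAN2A1, CYP27A1, PPP2R5A, CDK19 and ING3 fall outside it and were picked with their values in view. Full siblings and pigs sharing 1 parent had been left out of the study. The outdoor batch and the lane of each pig are not stated, so they cannot be told apart from the groups. Pigs are separate animals, and their number, 6 a group, limits the precision. The alternatives were other pseudocounts, filters, scalings, transcript sets, measures and models, a block by number, and each pig left out.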

Additional observations from a re-analysis of the deposited data

Results flagged for a closer look

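In 5 of the 16 groups of 6 pigs (8 subunits, H and L), 1 summed FPKM stood apart from the rest. Such a gap is flagged in about 1 in 20 groups of normal, independent values. Summed FPKM depends on how a gene was assembled, and the groups share libraries, so the 5 cannot be set against that rate. The size of the gap is given as a share of the range of the group. COG2 was highest in H6 (6.95 FPKM, gap 0.824) and in L3 (7.95 FPKM, gap 0.928), and both libraries held COG2 in pieces. COG8 was highest in L2 (14 FPKM, gap 0.964) and in H5 (7.08 FPKM, gap 0.681), where 4 and 3 COG8 transcripts were assembled. COG1 was highest in H2 (15.2 FPKM, gap 0.654), where 3 transcripts were assembled and its exon coverage, 9.07 FPKM, was within the range of the other H pigs.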

How the results depend on the processing

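The COG7 difference of 0.49 on the log2 scale kept its direction under 24 of 25 alternatives. COG7 was chosen for the separation of its summed FPKM, so settings that keep this sum could hardly turn the difference and lend it no support. Leaving out each pig in turn, which gave 0.47 to 0.53, is among them. Where the measure changed, the difference was -0.23 from annotated intron chains alone, since the part transcripts then drop out. It was 0.10 as coverage over annotated exons and 0.11 as FPKM per annotated intron, a measure added after the data were seen. The other 7 subunits gave 0 calls and the Golgi lists gave 0 calls under each of the 25. COG5 and COG8 stayed lower in H under all 25, and COG1, COG2, COG3, COG4 and COG6 changed sign under 2, 2, 1, 7 and 8 of them without passing the threshold. With a pig left out, COG8 ran from -0.44 to -0.13 (without L2), COG3 from -0.33 to -0.10 (without L3) and COG2 from -0.35 (without H6) to 0.00 (without L3).

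Over all genes, 1 call became 0 with a minimum mean of 1 FPKM, and 2 without a variance trend, with array weights and per annotated intron. With each pig left out there were 1 to 3 calls, 3 without H2, L3 or L4. With the individual number as a replicate block there were 0 calls over all genes, and no other call changed. Same-numbered pigs correlated by -0.0766 to 0.0555, and 1 pig correlated best with its own number, so the numbers do not pair the pigs. Of the 6 pairs of neighbouring levels, 3 passed by summed FPKM, 0 from annotated chains and 5 as exon coverage. With a pig left out 2 to 3 passed, and 2 with a pseudocount of 1. COG1 over COG4 and COG4 over COG8 passed in all 12 such runs, COG3 over COG2 in 1.

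The coverage behind single 5′ parts was 4.43 to 8.55 reads per base, and a transcript below what the assembler reports is absent from a library's file. A 0 therefore does not show that a part was absent from the RNA.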
